A study of Mus musculus with 2 samples.

Results

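The genes described here are the 5 ligands of the vascular endothelial growth factor (VEGF) family with a gene in mice (Vegfa, Vegfb, Vegfc, Vegfd and Pgf), the VEGF receptors Flt1 and Kdr, the angiopoietins Angpt1 and Angpt2, and their receptor Tek. They were chosen by symbol, and each matched 1 of the 32287 features of the tables, so 10 of 32287 features are members. The question addressed is which cells of the normal thoracic aorta carry the transcripts of each ligand and which carry those of each receptor.

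Thoracic aortas of 2 wild-type GFPiSMC mice on the C57BL/6J background were profiled cell by cell, with 1 droplet library of 3′ capture for each. These mice carry an inducible Cre recombinase (CreERT2) driven by the Myh11 promoter, which is active in smooth muscle cells (SMCs), and the mT/mG reporter, which changes from tdTomato to GFP after recombination. Tamoxifen, which activates this Cre, was injected intraperitoneally in 3-week-old animals (1 mg per day over 5 days), which were killed for analysis when 12 weeks old. Viable single cells were sorted after digestion in the cold, with no selection for GFP, and the study's methods describe the mice as male. Both mice carried the transgenes and received tamoxifen, no gene of this pathway was targeted, and both libraries form 1 group (n = 2 aortas), so the comparisons below are between cell types.

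VEGF-A binds the receptor tyrosine kinases FLT1 (VEGFR1) and KDR (VEGFR2), and KDR carries most of the mitogenic and permeability signal in endothelial cells, whereas FLT1 binds VEGF-A tightly and signals weakly. PGF and VEGF-B bind FLT1, and VEGF-C and VEGF-D act mainly through FLT4 (VEGFR3) on lymphatic endothelium. Angiopoietin-1 is the classical agonist of TEK (TIE2) and stabilizes vessels, and angiopoietin-2 can act as an antagonist or a weak agonist of the same receptor.

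A total of 6543 cells in aorta 1 and 4609 in aorta 2 passed the filters, with 41162456 and 27595786 UMIs (unique molecular identifiers, which tag single RNA molecules) and medians of 5671 and 5392 UMIs per cell. The libraries shared 18 cell barcodes. Clusters were named from marker lists, with members and pathway genes left out of the clustering, and gave 2221 and 1612 SMCs, 1385 and 998 fibroblasts, 785 and 726 endothelial cells, 261 and 152 mesothelial cells, 903 and 574 myeloid cells, 623 and 364 lymphocytes and 28 and 14 erythroid cells, while 337 and 169 cells stayed unnamed. In both aortas every listed marker of SMCs, fibroblasts, endothelial and mesothelial cells was detected in the type it names. This is no support for the names, since they rest on these markers and all 8 SMC markers were also detected in fibroblasts. Erythroid cells held at most 5 UMIs of any member in an aorta and are not described further. Endothelial cells were the shallowest of the named structural types, with median depths of 3672 and 3015.5 UMIs against 7728 and 7473.5 in SMCs.

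Levels are given as UMIs of a gene in 1000000 UMIs of a cell type in 1 aorta (CPM), with the value of aorta 1 first. Differences are log2 fold changes ± SE from edgeR's quasi-likelihood test on UMIs summed per aorta and cell type, in 1 fit over 7 cell types and 21 pairwise contrasts, with Benjamini-Hochberg adjustment over the 13960 genes tested in each contrast. A gene was called where it changed over 2-fold (1 on the log2 scale) with an adjusted p below 0.05, and all 10 members were tested. These p-values rest on the spread between sums of the 2 aortas pooled over all 7 types, not on that of the compared types alone. The F test over all 7 types had an adjusted p under 0.05 for each member, as it had for 92.5% of all genes tested, so that test says little about the members in particular.

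**Figure D1:**
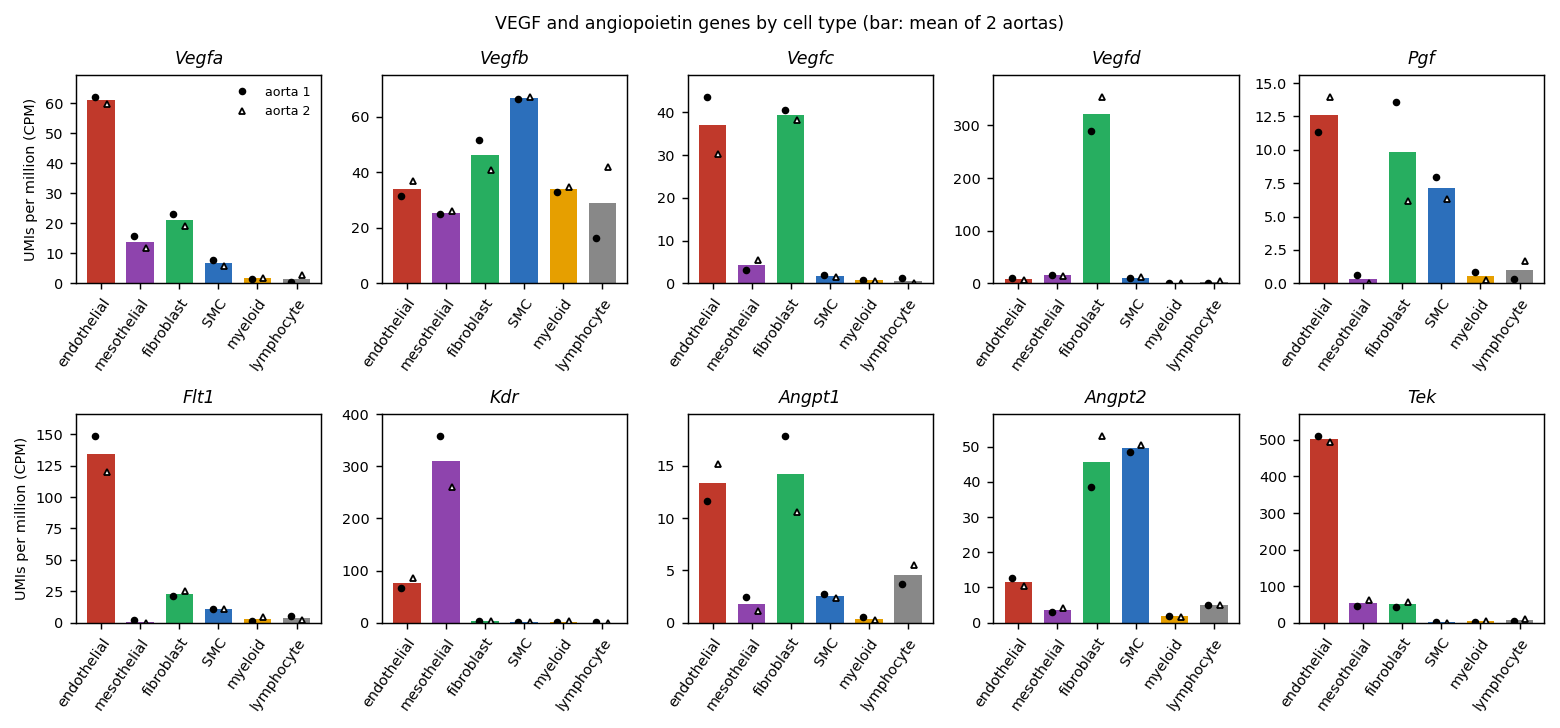
Level of each member (CPM, linear axis from 0, a separate scale for each gene) in 6 cell types. Bars are the mean of the 2 aortas, circles aorta 1 and triangles aorta 2. Kdr stood highest in mesothelial cells, Tek and Flt1 in endothelial cells, Vegfd in fibroblasts and Vegfb in SMCs.

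The receptors had different carriers. Tek and Flt1 were highest in endothelial cells, whereas the level of Kdr was higher in mesothelial cells, the lining of the outer surface, than in the endothelial cells as a whole. The 250 bases before the start of each receptor gene are shown because these genes differed together between endothelial cells and SMCs (sequence from RefSeq, build GRCm38.p6, 5′ to 3′ on the strand of the gene, in lower case with the letters GGAA, the core bound by ETS factors of endothelial cells, or TTCC for the opposite strand, in capitals). The Kdr window is chr5:75978456-75978705, the Flt1 window is chr5:147726012-147726261, both on the minus strand, and the Tek window is chr4:94739039-94739288 on the plus strand.
Kdr: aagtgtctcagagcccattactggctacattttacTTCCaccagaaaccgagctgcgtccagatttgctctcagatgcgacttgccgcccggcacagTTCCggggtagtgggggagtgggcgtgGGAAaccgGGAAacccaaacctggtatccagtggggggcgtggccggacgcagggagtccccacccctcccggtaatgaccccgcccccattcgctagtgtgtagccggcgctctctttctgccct
Flt1: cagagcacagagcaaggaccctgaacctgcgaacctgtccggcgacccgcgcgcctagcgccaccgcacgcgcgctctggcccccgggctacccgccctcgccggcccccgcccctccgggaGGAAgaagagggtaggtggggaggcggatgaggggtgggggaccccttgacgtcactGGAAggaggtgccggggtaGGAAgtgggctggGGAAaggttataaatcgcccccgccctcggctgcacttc
Tek: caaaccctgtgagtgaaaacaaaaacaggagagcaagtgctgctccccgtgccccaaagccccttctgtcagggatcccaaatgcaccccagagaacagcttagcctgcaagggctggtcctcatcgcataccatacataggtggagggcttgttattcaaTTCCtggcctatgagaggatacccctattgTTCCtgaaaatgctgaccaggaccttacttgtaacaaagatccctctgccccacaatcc
The Kdr and Flt1 windows hold 4 matches each and the Tek window holds 2. Of 32851 such windows in the table, 93.4% hold at least 1 match, 76.8% at least 2 and 33.4% at least 4, so these letters do not set the receptors apart. The table held promoters of 8 of the 10 members.

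Tek, the angiopoietin receptor (chromosome 4), was read at 510 and 494 CPM in endothelial cells, from 1625 and 1239 UMIs. It was at 46.3 and 61.4 CPM in mesothelial cells, 43.2 and 57.4 CPM in fibroblasts, 3.68 and 8.80 CPM in lymphocytes, 3.00 and 3.60 CPM in myeloid cells, and 0.903 and 0.259 CPM in SMCs. Both endothelial values lay above every other value, and the SMC values were the lowest of the 6 types. Endothelial cells exceeded SMCs by 9.35 ± 0.23 (log2, edgeR adjusted p = 4.65e-19), fibroblasts by 3.18 ± 0.14 (adjusted p = 1.28e-14) and mesothelial cells by 3.34 ± 0.18 (adjusted p = 4.92e-13). Fibroblasts and mesothelial cells differed by 0.16 ± 0.20 (adjusted p = 0.597), and their values overlapped. Both stood above lymphocytes by 3.09 ± 0.28 and 2.94 ± 0.34 (adjusted p = 1.84e-09 and 1.09e-07, with 27.5% and 23.0% of all genes called in these directions). Lymphocytes are not a measure of background here, since Tek was itself called higher in them than in SMCs. Endothelial cells gave 76.4% of all Tek UMIs in aorta 1 (95% exact limits of 74.5 and 78.2) and 73.8% in aorta 2 (71.6 to 75.8), whereas fibroblasts gave 17.5% and 20.6%. These intervals, like those below, cover counting error only.

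In cells thinned to 1000 UMIs each, 39.5% of endothelial cells (310 of 785) had a Tek UMI in aorta 1 and 36.9% (268 of 726) in aorta 2. The share was 0.482% and 1.10% in lymphocytes, whose median depths before thinning were 4098 and 3913.5 UMIs. Without thinning the endothelial shares were 76.1% and 70.4%.

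Kdr, the main signaling receptor for VEGF-A (chromosome 5), was read at 358 and 261 CPM in mesothelial cells (587 and 242 UMIs) and at 66.2 and 86.6 CPM in endothelial cells (211 and 217 UMIs). It was at 2.90 and 2.82 CPM in fibroblasts, 1.00 and 2.77 CPM in myeloid cells, and 0.481 and 0.517 CPM in SMCs (8 and 6 UMIs), and lymphocytes gave 2 UMIs in aorta 1 and 0 in aorta 2. The mesothelial values exceeded the endothelial values in both aortas, by 1.98 ± 0.16 on the log2 scale (adjusted p = 1.42e-09). Endothelial cells exceeded SMCs by 6.97 ± 0.29 (adjusted p = 4.68e-15) and fibroblasts by 4.56 ± 0.25 (adjusted p = 7.51e-13). Fibroblasts exceeded SMCs by 2.41 ± 0.50 (adjusted p = 0.000275), with 42 UMIs in fibroblasts over both aortas. Mesothelial cells were 3.99% and 3.30% of kept cells but gave 69.8% (66.6 to 72.9) and 49.1% (44.6 to 53.6) of Kdr UMIs, and endothelial cells gave 25.1% and 44.0%.

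Endothelial markers were low in the mesothelial cells. The 8 endothelial markers summed to 228 and 304 CPM there, against 9069 and 9643 CPM in endothelial cells, and Esam alone gave 186 and 265 CPM of the mesothelial sum. Cdh5 was at 1.22 and 2.16 CPM, Pecam1 at 10.4 and 17.2 CPM, Emcn at 0 and 3 UMIs and Ecscr at 2 and 0 UMIs. The mesothelial cells also held the 8 fibroblast markers at a sum of 6106 and 8037 CPM, and the 4 cardiomyocyte markers at 1145 and 879.7 CPM with 2 of 4 at 0 UMIs. The part of these genes in the Kdr level was not tested. At 1000 UMIs per cell, 28.7% (75 of 261) and 28.3% (43 of 152) of mesothelial cells had a Kdr UMI, against 5.99% and 7.71% of endothelial cells. No lymphocyte had one, 0 of 623 and 0 of 364, which by the exact interval allows shares of up to 0.590% and 1.01%.

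Flt1, the receptor of VEGF-A, VEGF-B and PGF (chromosome 5), was at 148 and 119.7 CPM in endothelial cells (473 and 300 UMIs), 21.0 and 25.2 CPM in fibroblasts, 10.95 and 10.6 CPM in SMCs, 5.01 and 2.20 CPM in lymphocytes and 1.5002 and 4.71 CPM in myeloid cells. Mesothelial cells gave 3 UMIs in aorta 1 and 0 in aorta 2. The order endothelial, fibroblast, SMC held in both aortas with no overlap. Endothelial cells exceeded fibroblasts by 2.40 ± 0.17 (adjusted p = 5.45e-11), and fibroblasts exceeded SMCs by 1.02 ± 0.19 (adjusted p = 8.39e-05), a call that was lost with called doublets kept (0.96), with no filter on low counts (just under 1.00) and with a minimum of 5000 UMIs per cell (0.68). SMCs exceeded lymphocytes by 1.47 ± 0.38 (adjusted p = 0.00178, against 25.6% of all genes called higher in SMCs), a call also lost with a minimum of 5000 UMIs per cell (1.30, adjusted p = 0.0623) and with called doublets kept (0.96). Per UMI of the cell type, Flt1 was 116 times as frequent in endothelial as in mesothelial cells, with an exact interval of 39.6 to 565 because mesothelial cells gave 3 UMIs in all. Mesothelial cells thus held the highest mean Kdr level and the lowest mean Flt1 level of the 6 types.

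**Figure D2:**
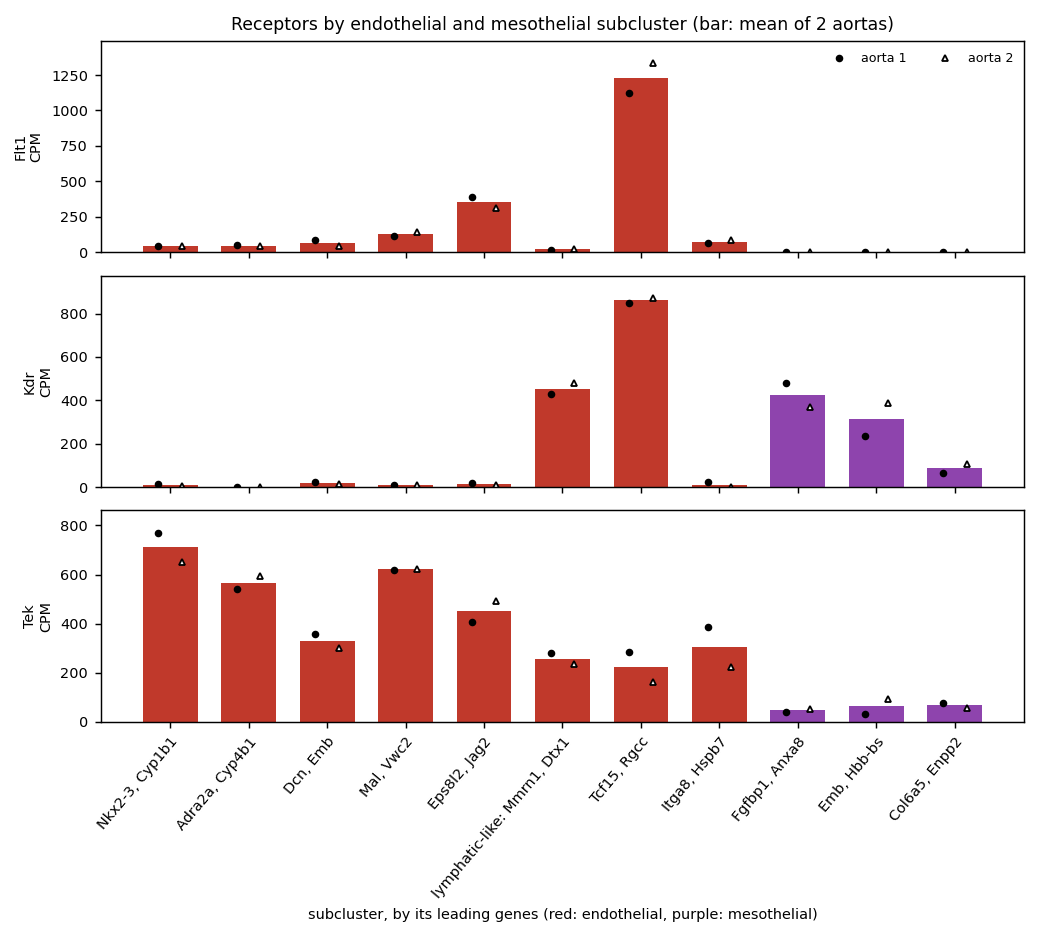
Levels of Flt1, Kdr and Tek (CPM, linear axes from 0) in 8 endothelial and 3 mesothelial subclusters, named by their leading genes, with bars for the mean of the 2 aortas. Kdr was low in 6 of 8 endothelial subclusters and high in the lymphatic-like one and the one led by Tcf15 and Rgcc, while Tek was present in all 8.

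The endothelial Kdr signal came from a small share of the endothelial cells. Endothelial cells were clustered again without members and pathway genes, and the values of subclusters are descriptions with no test. A subcluster led by Tcf15, Rgcc, Cd36, Car4, Fabp4 and Gpihbp1, the last of which holds lipoprotein lipase on capillary endothelium, had 37 and 47 cells and a Kdr level of 850 and 871 CPM. The lymphatic-like subcluster, marked by Prox1, Lyve1, Mmrn1 and Reln, had 45 and 75 cells and 427 and 479 CPM. Together they were 10.4% and 16.8% of endothelial cells and gave 81.5% (172 of 211) and 93.5% (203 of 217) of endothelial Kdr UMIs. The other 6 subclusters were between 0 and 22.4 CPM in either aorta. The pattern was the same in both aortas, and the subcluster levels of Kdr in these cells lay above those of the mesothelial cells as a whole.

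Flt1 and Tek were arranged otherwise. Flt1 reached 1126 and 1332 CPM in the Tcf15-led subcluster and 393 and 315 CPM in one led by Eps8l2, Jag2, Igf2 and Sema3g, but was at 13.3 and 24.3 CPM in the lymphatic-like cells, from 2 and 6 UMIs. Tek was detected in all 8 subclusters and was highest in those led by Nkx2-3, Cyp1b1 and Isl1 (769 and 652 CPM), by Mal and Vwc2 (620 and 623 CPM) and by Adra2a, Cyp4b1 and Sost (543 and 592 CPM). It was at 283 and 164 CPM in the Tcf15-led cells and 280 and 235 CPM in the lymphatic-like cells. The 3 subclusters with the highest Tek held Kdr at no more than 12.4 CPM. In the lymphatic-like cells Flt4, the receptor of VEGF-C and VEGF-D, was at 888 and 836 CPM, against at most 118 CPM in the others, and Nrp2, its co-receptor, was at 634 and 544 CPM. One endothelial subcluster of 13 and 8 cells was led by SMC genes such as Myh11 and Cnn1.

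Mesothelial subclusters differed in Kdr as well. The one led by Fgfbp1, Anxa8 and Calcb held 479 and 370 CPM, one led by Emb and Hbb-bs held 236 and 388 CPM, and one led by Col6a5, Enpp2 and Cdkn1c held 64.5 and 108 CPM. The first made up 55.2% of mesothelial cells in aorta 1 and 32.2% in aorta 2, and the last made up 14.9% and 42.1%. The Kdr-low subcluster also stood apart in its markers. The 8 mesothelial markers summed to 4721 and 6128 CPM there, against 10086 and 10479 CPM in the Fgfbp1-led cells, and the 8 fibroblast markers to 10739 and 10088 CPM against 4849 and 6261 CPM. The part of these markers in the Kdr level of the subclusters was not tested.

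Among fibroblasts, most Tek UMIs came from 1 subcluster. Fibroblasts led by Pla1a, Dpp4 and Dact2 held 150 and 154 CPM and gave 60.1% and 75.4% of fibroblast Tek UMIs, and those led by Lepr, Igfbp3 and Epyc held 93.1 and 49.8 CPM. Fibroblasts led by Pax1, Fmod and Lrrn1 held Tek at 2.17 CPM in each aorta. Flt1 was instead highest in other fibroblasts, at 43.5 and 77.7 CPM in those led by Lamc3 and Cytl1, 37.7 and 56.5 CPM in the Pax1 and Fmod cells, and 4.01 and 1.77 CPM in the Pla1a and Dpp4 cells. In SMCs, Flt1 was at 16.4 and 12.7 CPM in the cells led by Hand2 and Tnnt2, at 12.1 and 14.9 CPM in those led by Hoxa7 and Tnc, and at 1.91 and 2.57 CPM in those led by Hhip, Prss12 and Dlx6.

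**Figure D3:**
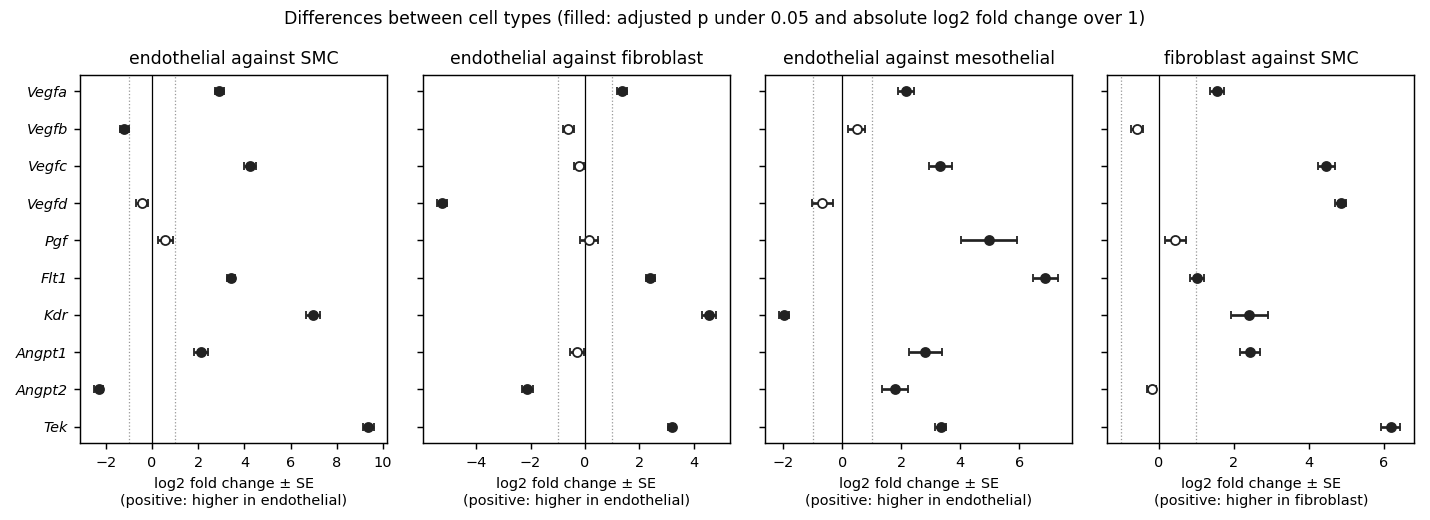
Log2 fold change ± SE of the 10 members in 4 contrasts between cell types (edgeR quasi-likelihood fit on 2 aortas per type), with dotted lines at -1 and 1 and filled points for called genes. Kdr is the member called higher in mesothelial than in endothelial cells. The Flt1 and Pgf values against mesothelial cells rest on 3 and 1 mesothelial UMIs.

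Counted over the members, 6 of 10 were called higher in endothelial cells than in SMCs (Vegfa, Vegfc, Flt1, Kdr, Angpt1 and Tek), against 15.9% of all genes, and 2 were called higher in SMCs (Vegfb and Angpt2), against 13.9%. Their median log2 fold change was 2.52, and that of all genes was 0.00. Between endothelial cells and fibroblasts, 4 were higher in endothelial cells (Vegfa, Flt1, Kdr and Tek, background 11.8%) and 2 in fibroblasts (Vegfd and Angpt2, background 14.2%), with a median of -0.04 against -0.03 for all genes. Fibroblasts exceeded SMCs in 7 (Vegfa, Vegfc, Vegfd, Flt1, Kdr, Angpt1 and Tek, background 16.3%) and SMCs exceeded fibroblasts in 0 (background 11.1%), with a median of 1.98 against 0.07. With DESeq2, which changes both the scaling and the test, the share of all calls that were higher in SMCs in this contrast was 28.8% instead of 40.4%.

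Against mesothelial cells, 7 members were called higher in endothelial cells (background 13.5%) and Kdr was called lower (background 12.2%). Fibroblasts exceeded mesothelial cells in 7 (background 13.9%) and fell below them in Kdr (background 10.3%). One of the 7, Vegfb, was under the fold limit with a minimum of 5000 UMIs per cell (0.959), with called doublets kept (0.957) and with library totals alone (0.878). Of all calls in this contrast 57.5% were higher in fibroblasts, and 47.95% with library totals alone. Mesothelial cells exceeded SMCs in Kdr and Tek (background 14.6%), and SMCs exceeded mesothelial cells in Vegfb, Pgf, Flt1 and Angpt2 (background 14.1%). Of all calls in this last contrast 49.1% were higher in SMCs, a share that was 37.4% with library totals alone and 35.2% with DESeq2. Only Kdr among the members was called higher in mesothelial cells than in both endothelial cells and fibroblasts.

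The ligands also divided by cell type. Vegfd came largely from fibroblasts, Vegfa had its highest level in endothelial cells, and Vegfc was shared by fibroblasts and endothelial cells. Vegfb and Angpt2 gave most of their UMIs in SMCs, the most numerous type, but neither was called different in level between SMCs and fibroblasts.

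**Figure D4:**
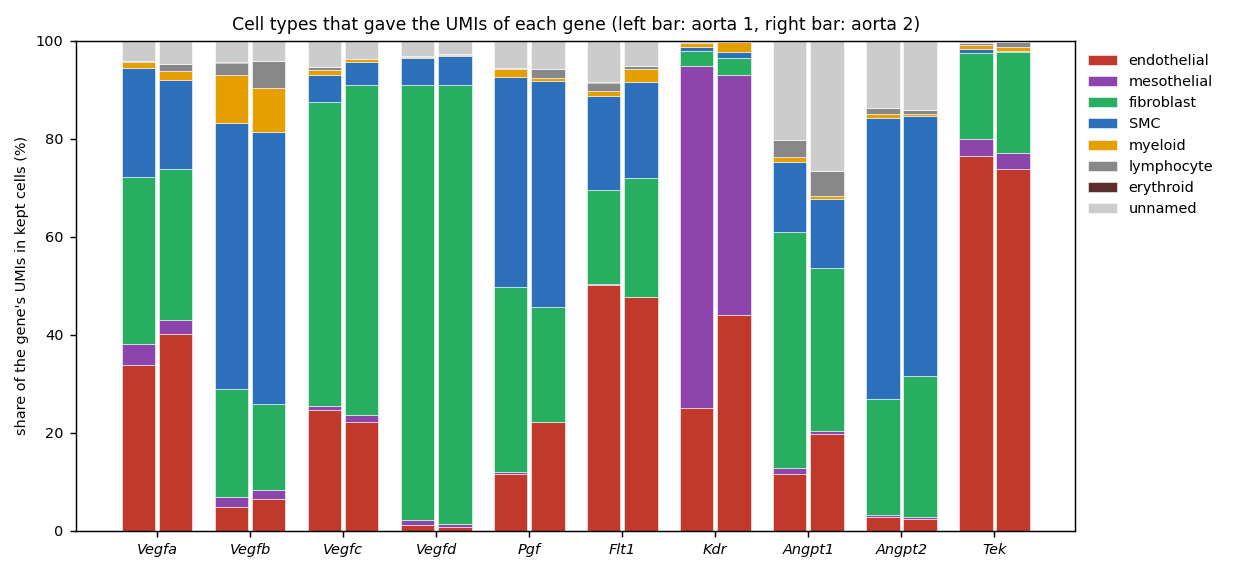
Share of each member's UMIs (percent of its UMIs in kept cells) that came from each cell type, with 2 stacked bars per gene, aorta 1 on the left and aorta 2 on the right. Fibroblasts gave 88.7% and 89.6% of Vegfd UMIs, endothelial cells 76.4% and 73.8% of Tek UMIs, and mesothelial cells 69.8% and 49.1% of Kdr UMIs.

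Vegfa, the main ligand of KDR (chromosome 17), was at 62.1 and 59.8 CPM in endothelial cells (198 and 150 UMIs), 23.2 and 19.1 CPM in fibroblasts, 15.8 and 11.9 CPM in mesothelial cells, 7.82 and 5.86 CPM in SMCs, 1.33 and 1.94 CPM in myeloid cells and 0.334 and 2.75 CPM in lymphocytes. The first 4 types kept this order in both aortas without overlap. Endothelial cells exceeded fibroblasts by 1.36 ± 0.18 (adjusted p = 1.57e-06), mesothelial cells by 2.16 ± 0.27 (adjusted p = 9.16e-07) and SMCs by 2.91 ± 0.19 (adjusted p = 1.56e-11). Fibroblasts exceeded SMCs by 1.55 ± 0.19 (adjusted p = 4.74e-07), and the differences of mesothelial cells from fibroblasts and from SMCs were not called. The latter was called with DESeq2 and with library totals alone (1.04 in each, adjusted p = 0.00245 and 0.0103). Because fibroblasts and SMCs were more numerous and deeper, endothelial cells gave 33.7% and 40.1% of Vegfa UMIs, fibroblasts 34.1% and 30.7%, and SMCs 22.1% and 18.2%. Among endothelial subclusters, those led by Nkx2-3 and Isl1 held 144 and 139 CPM and gave 47.0% and 63.3% of endothelial Vegfa UMIs, while the lymphatic-like and Tcf15-led cells, where Kdr was high, gave 1 or 0 Vegfa UMIs each per aorta.

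Vegfb, a ligand of FLT1 (chromosome 19), was the member read most evenly over the cell types. It was at 66.4 and 67.1 CPM in SMCs (1103 and 778 UMIs), 51.6 and 40.8 CPM in fibroblasts and, among endothelial cells, 31.4 and 36.7 CPM. The levels were 33.0 and 34.6 CPM in myeloid cells, 24.97 and 25.9 CPM in mesothelial cells and 16.4 and 41.8 CPM in lymphocytes. SMC values were above the others in both aortas, and the lymphocyte values differed most between aortas. The 8 SMC markers summed to 1194 and 2043 CPM in lymphocytes, and their part in the Vegfb level was not tested. SMCs exceeded endothelial cells by 1.19 ± 0.19 (adjusted p = 1.34e-05), a difference of 0.98 with library totals alone, and mesothelial cells by 1.68 ± 0.25 (adjusted p = 6.31e-06). Their differences from fibroblasts, 0.58 ± 0.16, and from myeloid cells, 0.91 ± 0.18, were under the fold limit (adjusted p = 0.00355 and 7.55e-05). Endothelial and myeloid cells differed by 0.28 ± 0.22 (adjusted p = 0.299). SMCs gave 54.3% and 55.6% of Vegfb UMIs.

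Vegfc, a ligand of FLT4 that drives lymphatic growth (chromosome 8), was at 43.6 and 30.3 CPM in endothelial cells (139 and 76 UMIs) and at 40.6 and 38.2 CPM in fibroblasts (350 and 230 UMIs), but at 3.05 and 5.39 CPM in mesothelial cells and 1.93 and 1.38 CPM in SMCs. Fibroblast and endothelial values overlapped and differed by 0.23 ± 0.18 (adjusted p = 0.341). Both exceeded SMCs, by 4.46 ± 0.23 and 4.23 ± 0.25 (adjusted p = 1.88e-13 and 2.81e-12), and mesothelial cells, by 3.55 ± 0.37 and 3.32 ± 0.39 (adjusted p = 5.29e-08 and 3.66e-07). The endothelial subcluster led by Jag2 and Sema3g, the latter a semaphorin of arterial endothelium, held 177 and 161 CPM, and the Tcf15-led cells held 102 and 41.0 CPM. The lymphatic-like cells, which carried Flt4, gave 0 and 2 Vegfc UMIs. Fibroblast subclusters ranged from 13.5 to 56.4 CPM and included no such peak.

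Vegfd, the other ligand of FLT4 (chromosome X), was at 289 and 354 CPM in fibroblasts (2493 and 2134 UMIs), 16.4 and 14.0 CPM in mesothelial cells, 9.39 and 12.3 CPM in SMCs, 10.99 and 7.18 CPM in endothelial cells, and at most 3.85 CPM in myeloid cells and lymphocytes. The fibroblast values were far from all others. Fibroblasts exceeded endothelial cells by 5.26 ± 0.19 (adjusted p = 1.92e-16), SMCs by 4.84 ± 0.15 (adjusted p = 8.57e-18) and mesothelial cells by 4.59 ± 0.21 (adjusted p = 2.12e-14), and the other 3 structural types were not called different from each other, except that with a minimum of 5000 UMIs per cell endothelial cells were called lower than SMCs (-1.43, adjusted p = 0.00738). At 1000 UMIs per cell, 18.5% (256 of 1385) and 19.1% (191 of 998) of fibroblasts had a Vegfd UMI, against 1 of 623 and 0 of 364 lymphocytes, and without thinning the fibroblast shares were 46.8% and 44.3%. The fibroblasts led by Pax1, Fmod and Lrrn1 held 660 and 1014 CPM and gave 61.1% and 65.6% of fibroblast Vegfd UMIs from 28.2% and 25.5% of the cells. The Pla1a and Dpp4 fibroblasts, which held most of the fibroblast Tek, were at 126 and 87.1 CPM.

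Pgf, a ligand of FLT1 named for the placenta (chromosome 12), was sparse, at 11.3 and 14.0 CPM in endothelial cells (36 and 35 UMIs), 13.6 and 6.14 CPM in fibroblasts (117 and 37 UMIs) and 7.94 and 6.29 CPM in SMCs (132 and 73 UMIs), with 1 UMI in all in mesothelial cells. The fibroblast values overlapped those of both other types, the endothelial values lay above the SMC values, and none of the 3 differences was called: 0.14 ± 0.33 between endothelial cells and fibroblasts, 0.58 ± 0.32 between endothelial cells and SMCs, and 0.44 ± 0.28 between fibroblasts and SMCs (adjusted p = 0.776, 0.136 and 0.184). Per UMI of the cell type, SMCs held 18.7 times the Pgf of mesothelial cells, with an exact interval of 3.31 to 741 from 1 mesothelial UMI. In SMCs the level was highest in a subcluster of 59 and 49 cells led by Kcna5, Gja4, Pln and Notch3, with 151 and 78.4 CPM, which gave 53.8% (71 of 132) and 41.1% (30 of 73) of the SMC Pgf UMIs from 2.66% and 3.04% of SMCs. No other SMC subcluster exceeded 9.24 CPM. The absence of a call against SMCs depended on the Kcna5-led cells. With them left out, an alternative chosen after seeing the data, endothelial cells were called above SMCs (1.498, edgeR adjusted p = 0.000886). Fibroblasts were then called above SMCs as well (1.354, adjusted p = 0.000613). In endothelial cells Pgf was at 63.3 and 22.0 CPM in the Jag2 and Sema3g cells and at 26.7 and 114 CPM in the lymphatic-like cells, from 4 and 28 UMIs, so the aortas differed in which subcluster held more.

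**Figure D5:**
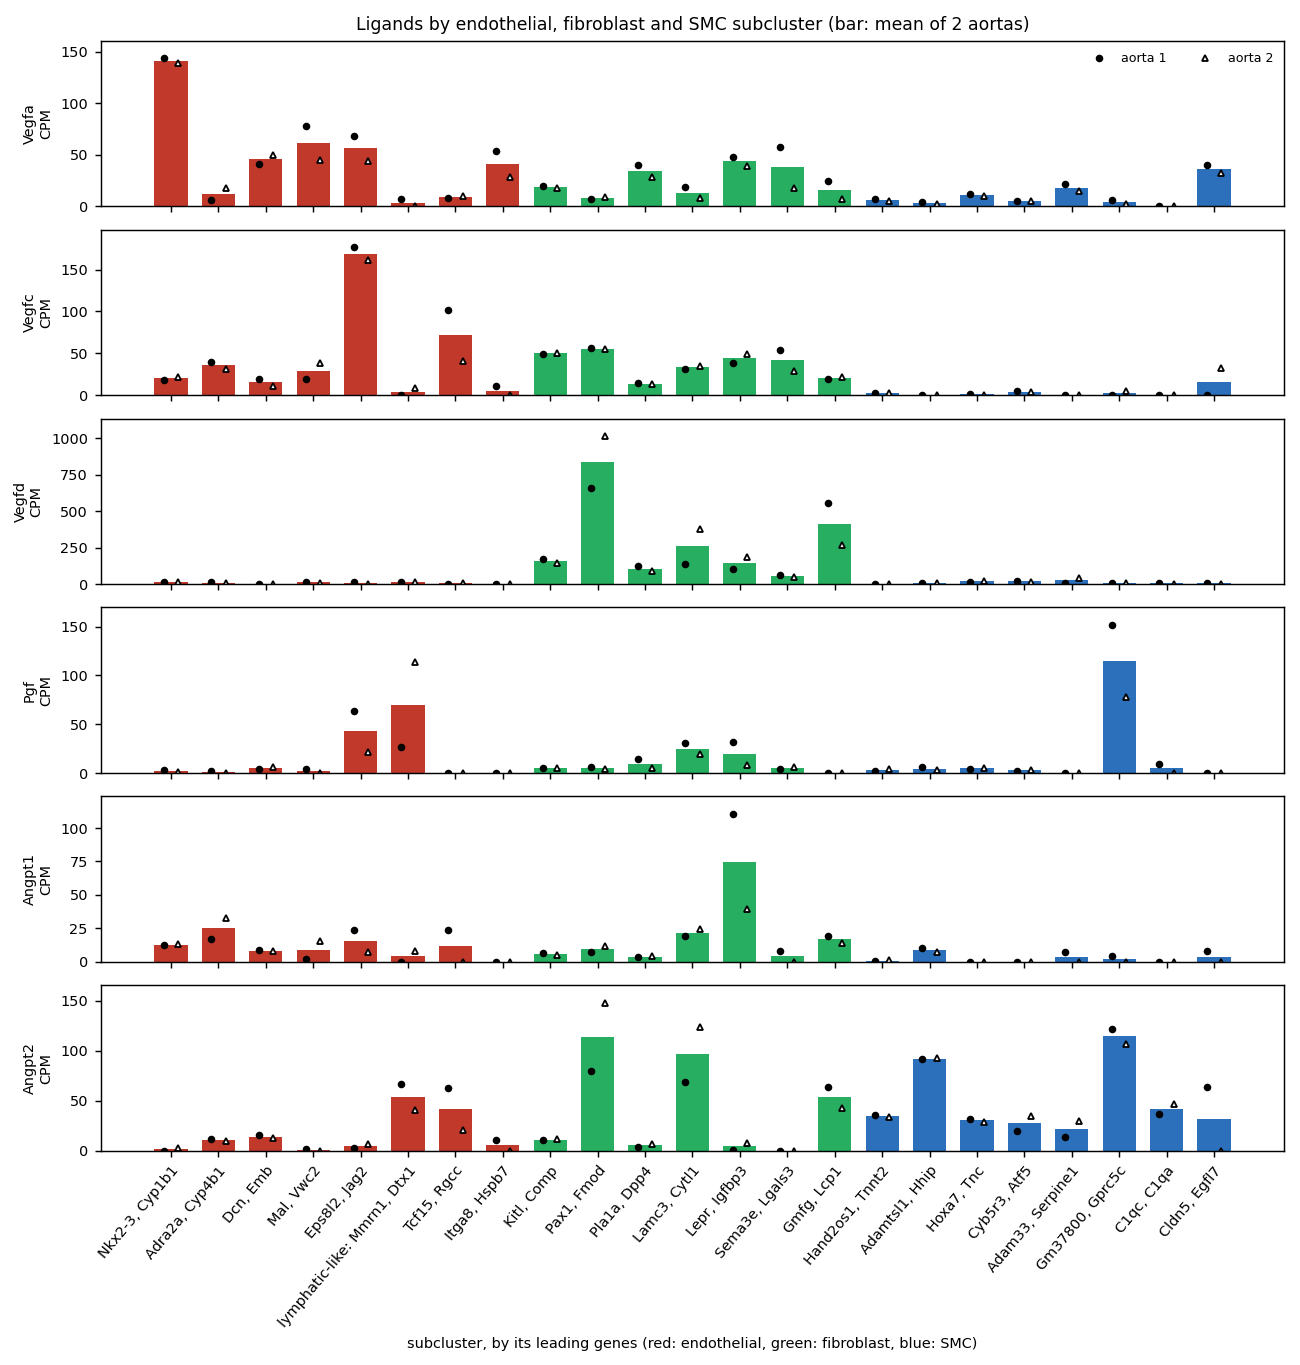
Levels of 6 ligands (CPM, linear axes from 0) in endothelial, fibroblast and SMC subclusters named by leading genes, with bars for the mean of the 2 aortas. Subclusters with 2 or more leading markers of another type (those led by Itga8 and Hspb7 in endothelial cells, Gmfg and Lcp1 in fibroblasts, C1qc and C1qa or Cldn5 and Egfl7 in SMCs) hold 18 to 37 cells each. The endothelial subcluster led by Dcn, a listed fibroblast marker, holds 248 cells and is not among these.

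Angpt1, the agonist of TEK (chromosome 15), was at 17.9 and 10.6 CPM in fibroblasts (154 and 64 UMIs), 11.6 and 15.2 CPM in endothelial cells (37 and 38 UMIs), 3.68 and 5.50 CPM in lymphocytes, 2.77 and 2.33 CPM in SMCs and 2.44 and 1.08 CPM in mesothelial cells. Fibroblast and endothelial values overlapped (0.29 ± 0.27, adjusted p = 0.418). Both exceeded SMCs, by 2.42 ± 0.26 and 2.13 ± 0.31 (adjusted p = 5.29e-08 and 4.23e-06). The fibroblasts led by Lepr, Igfbp3, Epyc and Tcf21 held 110 and 39.3 CPM and gave 53.9% and 23.4% of fibroblast Angpt1 UMIs, the SMCs led by Hhip and Dlx6 held 10.4 and 7.38 CPM, and the other SMC subclusters of over 100 cells held 0 to 7.09 CPM. Unnamed cells gave 20.3% and 26.6% of all Angpt1 UMIs. Angpt1 overlaps the antisense gene Gm17473, and as the use of strand in the counting was not given in the sources used here, reads of both genes cannot be told apart.

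Angpt2, the context-dependent ligand of TEK (chromosome 8), was at 48.5 and 50.5 CPM in SMCs (806 and 586 UMIs), 38.5 and 53.0 CPM in fibroblasts (332 and 319 UMIs), 12.6 and 10.4 CPM in endothelial cells (40 and 26 UMIs), 5.01 and 4.95 CPM in lymphocytes and 3.05 and 4.31 CPM in mesothelial cells. SMC and fibroblast values overlapped and differed by 0.19 ± 0.13 (adjusted p = 0.215). Both exceeded endothelial cells, by 2.31 ± 0.19 and 2.12 ± 0.19 (adjusted p = 5.01e-10 and 4.99e-09), and mesothelial cells, by 4.09 ± 0.31 and 3.90 ± 0.32 (adjusted p = 3.07e-10 and 1.74e-09). SMCs gave 57.4% (54.8 to 60.01) and 53.0% (49.99 to 56.0) of Angpt2 UMIs. Angpt2 overlaps the antisense gene Mcph1 and carries the same limit.

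Angpt2 was uneven within both sources. In SMCs it was at 91.5 and 92.7 CPM in the Hhip and Dlx6 cells and 122 and 107 CPM in the Kcna5-led cells, against 35.8 and 34.0 CPM in the Hand2 and Tnnt2 cells and 31.9 and 29.2 CPM in the Hoxa7 and Tnc cells. In fibroblasts it was at 79.8 and 148 CPM in the Pax1 and Fmod cells and 69.2 and 124 CPM in the Lamc3 and Cytl1 cells, and at no more than 11.5 CPM in those led by Kitl and Comp, by Pla1a and Dpp4 or by Lepr and Igfbp3. The fibroblasts with high Angpt2 were thus those with low Tek and the highest Flt1. In endothelial cells the lymphatic-like subcluster held 66.7 and 40.6 CPM, from 10 UMIs in each aorta.

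Other genes of the pathway were taken from a list of 29, all of which had a row in the tables and 27 of which passed the filter on low counts. Between endothelial cells and SMCs, 12 were called higher in endothelial cells and 2 in SMCs, and the median log2 fold change was 0.55. Between endothelial cells and fibroblasts, 12 were higher in endothelial cells and 5 in fibroblasts, with a median of 0.96, and between fibroblasts and SMCs, 9 were higher in fibroblasts and 4 in SMCs, with a median of 0.48. The backgrounds are those given above for the same contrasts.

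All 6 receptors and co-receptors on the list (Flt4, Nrp1, Nrp2, Tie1, Ptprb and Plxnd1) were called higher in endothelial cells than in SMCs and than in fibroblasts. Ptprb, a phosphatase that acts on TEK, was at 2188 and 2196 CPM in endothelial cells and at most 30.2 CPM in the other 5 types. Tie1, the partner receptor of TEK, was at 286 and 300.4 CPM against at most 3.30 CPM. Nrp1, a co-receptor of KDR, was also present in fibroblasts (306 and 339 CPM) and myeloid cells (266 and 274 CPM) beside endothelial cells (714 and 720.5 CPM), and was at 0 and 8.12 CPM in the lymphatic-like cells. Nrp2 was at 72.8 and 77.0 CPM in myeloid cells, above the 42.1 and 65.4 CPM of endothelial cells. Flt4 was also detected in mesothelial cells, at 29.8 and 15.1 CPM against 67.2 and 103 CPM in endothelial cells, a difference of 1.88 ± 0.30 (adjusted p = 3.05e-05).

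Of 5 genes that process or accompany the ligands, 4 passed the filter on low counts (Ccbe1, Adamts3, Svep1 and Angpt4), and these were called higher in fibroblasts than in SMCs, endothelial cells and mesothelial cells. The other, Adamts14, was not tested and was at 1.16 and 1.33 CPM in fibroblasts and 3.68 and 1.10 CPM in lymphocytes, the latter from 11 and 2 UMIs. Svep1, an extracellular protein that binds TIE1 and angiopoietins, was at 582 and 579 CPM in fibroblasts and 1.57 and 1.99 CPM in endothelial cells. Ccbe1, which with ADAMTS3 promotes the cleavage of VEGF-C, was at 36.6 and 35.0 CPM in fibroblasts and 5.48 and 22.6 CPM in mesothelial cells. Angpt4, the third angiopoietin, was at 75.1 and 60.9 CPM in fibroblasts and 0 UMIs in endothelial cells of both aortas.

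Among 8 genes of the hypoxia response, which controls Vegfa in many tissues, Epas1 (HIF-2 alpha) was at 682 and 683 CPM in endothelial cells, 2.64 ± 0.12 above SMCs (adjusted p = 4.68e-15). Hif1a was highest in SMCs, at 165 and 144 CPM. Egln3, an oxygen sensor that lowers HIF, was at 87.7 and 62.5 CPM in mesothelial cells, 24.9 and 22.2 CPM in SMCs and at most 6.35 CPM in the other types. The other 5 (Arnt, Egln1, Egln2, Vhl and Hif1an) were called in none of the 6 contrasts between structural types.

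Of 10 genes of VEGF signaling and response, 9 were tested and 5 were called higher in endothelial cells than in SMCs (Plcg1, Dok2, Nos3, Dll4 and Aplnr), of which Dok2 rested on 2 and 9 endothelial UMIs and was at 129 and 137 CPM in myeloid cells. Nos3, the endothelial nitric oxide synthase, was at 315 and 270.5 CPM in endothelial cells and at most 2.59 CPM in the other 5 types. Dll4, a Notch ligand, was at 17.6 and 24.7 CPM and was highest in the Tcf15-led cells, at 78.7 and 113 CPM. Esm1, known from endothelial tip cells, gave 1 UMI in the endothelial cells of each aorta and was at 16.0 and 12.0 CPM in fibroblasts.

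The genes whose level followed each member most closely were found by Pearson's r of log2(CPM + 1) over the 14 sums of 7 types and 2 aortas, which share libraries and cell types, so no p is given. For Tek they were Bmp4 (r = 0.972), Heg1 and Plekha6, for Kdr Zfp57 (r = 0.993), Pkp2 and Rhpn2, and for Flt1 Col23a1 (r = 0.957), Eng and Grasp. For the VEGF ligands they were Tspan12 (r = 0.982), Ntn4 and Ccdc157 with Vegfa, Dpysl3 (r = 0.920), Gm15417 and Slc20a2 with Vegfb, Gap43 (r = 0.970), Dock9 and Rai2 with Vegfc, Pdgfra (r = 0.969), Bmp1 and Entpd2 with Vegfd, and Armcx4 (r = 0.968), Foxc2 and Msx1 with Pgf. For the angiopoietins they were Fam174b (r = 0.952), Pxylp1 and Art4 with Angpt1, and Gem (r = 0.977), Pdgfrb and Rnf24 with Angpt2.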

How the data were processed

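Thoracic aortas of 2 mice were measured by single-cell RNA sequencing. The deposited values are raw UMI counts per gene and cell, which the authors made with Cell Ranger 4.0.0 on mm10 (Seurat 4.0 is also in the submitters' processing notes), and they hold 8947 and 6263 called cells with 47009780 and 30919996 UMIs (medians 4296 and 3945) without further filtering. The labels give 6278 and 4300 cells after the study's own filters.

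Cells with over 200 genes, 1000 to 25000 UMIs and under 10% mitochondrial UMIs were kept. Doublets called per aorta by Scrublet (scanpy 1.11.5, Python 3.11.15) were removed, 201 (2.98%) and 89 (1.89%). Cells were clustered with Leiden (leidenalg 0.10.2, resolution 1, subclusters 0.5, 2000 variable genes, 30 components, 15 neighbours) without the 39 members and pathway genes. A cluster name needed at least 3 markers, each detected in at least 25% of its cells, and took the class with the highest mean excess of detection over the other clusters. Clusters in which a second class reached 50% of that score, with 2 or more leading markers of another class or with low UMIs stayed unnamed. The scoring was changed after cluster tables were seen, because clusters with clear SMC markers had stayed unnamed and others carried markers of more than 1 class. Names are marker-based and can differ from the study's.

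Counts were summed per aorta and cell type, scaled by TMM, filtered by filterByExpr and tested with edgeR 4.0.16 (R 4.3.3) in a model that held the cell type alone. The fit was tested on simulated counts. Intervals of shares are exact (Clopper-Pearson, 95%). Sums of 1 aorta come from 1 animal, so a fit with aorta as a block was also run, and the correlation of deviations within aortas ranged from -0.03 to 0.10. DESeq2 1.42.0 was an alternative. All members are named, the rule named every gene of the pathway list and the 3 genes most like each member, and subclusters are called by leading genes. The members and lists were chosen with earlier results of these data known. Each name stands for cells like that type.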

Additional observations from a re-analysis of the deposited data

How the results depend on the processing

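The directions of the called differences between structural cell types were kept under every alternative run. Among 938 single-gene values under alternatives, 905 kept their direction and, where tested, their side of the threshold. Of the others, 9 fell under it, 7 passed it and 17 changed sign, of which 0 belonged to a called difference. Values with 1 aorta left out had no test and were judged by direction alone. The values that changed sign lay near 0 or rested on few UMIs. Vegfd, endothelial minus SMC, was 0.58 with called doublets kept, but -1.43 and called with a minimum of 5000 UMIs. Pgf, endothelial minus SMC, was -0.18 without the lymphatic-like subcluster. Pgf, endothelial minus fibroblast, was -0.0049 with doublets kept and -0.63 without that subcluster, and it ranged from -0.42 to 1.02 when 1 aorta was left out. In the same way Angpt1, endothelial minus fibroblast, ranged from -0.77 to 0.36 and Pgf, fibroblast minus SMC, from -0.080 to 0.69. Angpt2, fibroblast minus SMC, was 0.067 with no UMI limits, 0.060 with DESeq2 and -0.41 to 0.021 with 1 aorta left out. Tek, fibroblast minus mesothelial, was -0.095 with a minimum of 5000 UMIs, -0.059 with no UMI limits and -0.068 with library totals alone. Vegfd, mesothelial minus SMC, was -0.42 with a minimum of 5000 UMIs, -0.12 with no UMI limits and -0.094 to 0.51 with 1 aorta left out. Vegfb, endothelial minus myeloid, was 0.0058 with library totals alone.

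The number of members higher in SMCs than in endothelial cells fell from 2 to 1 with library totals alone, since Vegfb dropped to 0.98, and the number of pathway genes from 2 to 1 with doublets kept. Vegfc was called higher in mesothelial cells than in SMCs with doublets kept (1.41), and Vegfb higher in SMCs than in myeloid cells with no UMI limits (1.02). The cause of the other changes was not tested. Library totals alone moved the median of all genes by up to -0.25 and DESeq2 by up to -0.29 (log2, SMC minus mesothelial). With the replicate block the counts of called members in these contrasts were as without it, for example 6 and 2 between endothelial cells and SMCs. Leaving out 1 aorta leaves no residual degrees of freedom, so those differences have no test.

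Shares moved with the UMI limits. A minimum of 5000 UMIs leaves 225 and 141 endothelial cells. With it, mesothelial cells gave 78.8% of Kdr UMIs, endothelial cells 57.4% of Tek and 22.1% of Vegfa UMIs, and SMCs 66.6% of Angpt2 UMIs. Fibroblasts gave 91.3% of Vegfd UMIs with no UMI limits and 85.2% with doublets kept. The share of mesothelial cells with a Kdr UMI was 24.0% with a minimum of 5000 UMIs, 25.6% with no limits, 23.0% with doublets kept, 6.27% for at least 2 UMIs and 58.6% unthinned. That of endothelial cells with a Tek UMI was 27.4% with 5000 UMIs, 10.97% for at least 2 UMIs and 73.2% unthinned, and that of fibroblasts with a Vegfd UMI was 19.9% with 5000 UMIs, 20.4% with doublets kept, 6.66% for at least 2 UMIs and 45.5% unthinned. Leaving out 1 aorta gave 49.1 to 69.8% for mesothelial Kdr UMIs. No subcluster met the small-vessel mural markers, so leaving such cells out was not run. The alternatives without the Kcna5-led SMCs, without low-UMI SMCs and without mixed subclusters were chosen after seeing the data. Without the Kcna5-led SMCs, Pgf was called higher in endothelial cells than in SMCs (1.498, edgeR adjusted p = 0.000886). Pgf was then also called higher in fibroblasts than in SMCs (1.354, adjusted p = 0.000613). Depth limits Pgf, Angpt1 and the levels of Kdr and Tek in SMCs and of Flt1 in mesothelial cells, which rest on few UMIs.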

Other observations

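Cells that no marker list named held some of the highest angiopoietin levels. An unnamed cluster of 105 and 46 cells led by Mab21l2, Chrm2, Nrn1 and Mme, which had both SMC and fibroblast markers, held Angpt2 at 156 and 194 CPM and Angpt1 at 71.9 and 154 CPM, both above the values of each named cell type in the same aorta. Another, led by Tnfrsf11b, Fst and Vwc2 and also with both kinds of markers, held Angpt2 at 96.0 and 158 CPM, Flt1 at 78.5 and 45.3 CPM and Vegfd at 57.4 and 92.2 CPM. A cluster of 24 cells led by Cxcl13 and Wnt4, with mesothelial and fibroblast markers, held Vegfa at 36.6 and 128 CPM, from 8 and 9 UMIs, and no Kdr UMI, which at its depth allows a level of up to 13.7 and 42.8 CPM.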
